A study of Danio rerio with 12 samples.

Results

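Connexins and claudins, the membrane proteins of gap junctions and tight junctions, were followed as transcripts in ventricular apices of adult zebrafish. The fish had or lacked a functional endogenous copy of nkx2.5, the gene of a homeodomain transcription factor of the heart. The members were the genes of the count files whose symbols place them in either family and for which at least 10 reads were counted in at least 2 libraries. This rule kept 27 of the 64 family symbols among the 38049 genes listed, namely 14 of 32 connexins and 13 of 32 claudins, and no fold change or test entered it. Every member also passed the low-count filter, which left 19014 genes for the test. The 37 symbols that the rule left out had 10 or more reads in at most 1 library.

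RNA was sequenced from 6 groups of 2 libraries each, and each library pooled 6 apices, so the spread between libraries does not show the spread between fish. Every fish, controls included, was heat-shocked as an embryo at 21 somites. MT fish were homozygous for the nkx2.5 mutation and carried Tg(hsp70l:nkx2.5-EGFP), a transgene under a heat-shock promoter that supplied nkx2.5 in the embryo. TG fish carried the same transgene in a wild-type background, and WT fish were wild type without it. Groups MT7, TG7 and WT7 were collected 7 days after amputation of the apex, and MT0, TG0 and WT0 were uninjured. The mutants are thus rescued fish whose named genotype differs from WT in both the mutation and the transgene, and from TG in the mutation alone. Other differences between the groups, such as clutch or age, were not tested. The paper reports that amputation itself also switched the transgene on in adult hearts without heat shock, with levels back to normal within days. It holds that the limited time and place of this pulse make an effect on the injury response less likely. MT7 and TG7 fish carried the transgene and WT7 fish did not. The part of such a pulse in comparisons with MT7 or TG7 was not tested.

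A connexin hexamer in one cell docks with a hexamer in its neighbour to form a channel for ions and small molecules, which in heart muscle lets the action potential pass from cell to cell. Claudins span the membrane at the tight junction and set how permeable the space between epithelial or endothelial cells is. Claudins are best known from epithelia and endothelia, and a heart also holds both, as epicardium, endocardium and vessels. The zebrafish genome holds several copies of many of these genes, and the files use older names for some: cx43 is gja1b, cx41.8 is gja5b, cx45.6 is gja5a, cx39.4 is gja4, cx36.7 is gjd6 and cx43.4 is gjc4b in the RefSeq gene table, which matched 26 of the 27 members.

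Total counts lay between 14234818 and 24544150 per library, and 0.041% to 0.0814% of them fell on genes outside the test in 11 libraries, against 0.771% in MT7 replicate 1. That library stood apart in some genes of surface epithelia. epcam had 34.8 CPM (TMM-normalised counts scaled to a common library size) there and at most 0.820 CPM elsewhere, and krt5 had 158 CPM there, 50.03 CPM in WT0 replicate 2 and at most 6.03 CPM elsewhere. The epithelial list as a whole set it apart far less, as its 10 genes summed to 4444 CPM there, 4135 CPM in MT7 replicate 2 and 4010 CPM in TG7 replicate 2. Of the abundant keratins, krt8 had 3244 CPM there and 3167 CPM in MT7 replicate 2, and krt4 and krt18 were higher in other libraries. Results on MT7 are therefore also given without that library where its removal ends a call or moves a value by over 1.5 times. WT0 replicate 1 had 169 CPM of the endothelial cadherin cdh5, against 12.6 to 23.8 CPM in the other 11 libraries. Summed over 8 cardiomyocyte markers, MT7 libraries had 27680 and 40370 CPM, MT0 71420 and 49780 CPM, TG7 57530 and 64630 CPM, TG0 91460 and 98550 CPM, WT7 69150 and 64350 CPM, and WT0 91190 and 83820 CPM. In pooled tissue, fewer cells of a type and less RNA per cell cannot be told apart. Reads over nkx2.5 itself do not separate the mutant allele, the normal allele and the transgene, and its 166 to 450 CPM over all libraries does not check the genotype labels.

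**Figure D1:**
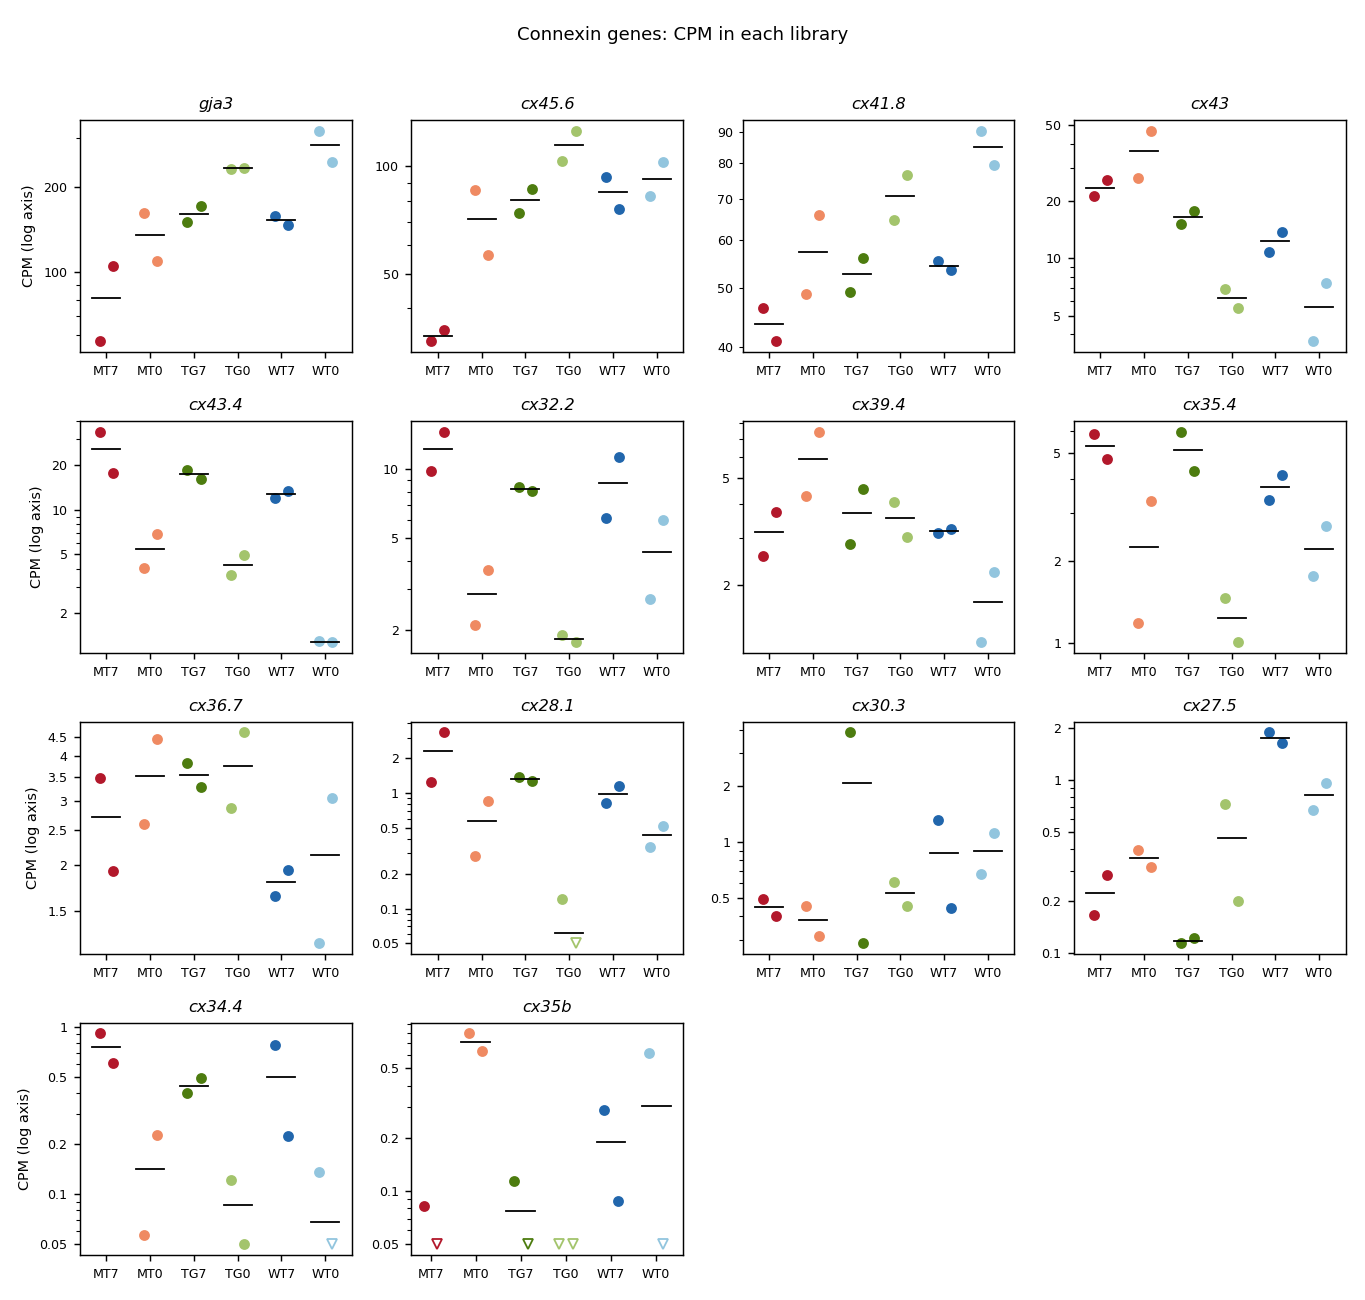
CPM (log axis) of the 14 connexin members in each of the 12 libraries, by group, with a bar at the mean of the 2 libraries of a group (left point replicate 1, right point replicate 2) and open triangles for libraries under 0.05 CPM. gja3, cx45.6 and cx41.8 were lowest in an MT7 library, whereas cx43 was highest in MT0 and cx43.4 was higher in both injured libraries of each genotype than in either uninjured one.

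A gene was called where the log2 fold change exceeded 0.5 in size and the adjusted p (edgeR quasi-likelihood, Benjamini-Hochberg over 19014 genes) was under 0.05. In uninjured apices, 3 connexins and 4 claudins rose in MT0 against WT0, where 13.6% of all genes tested rose, and 2 connexins and 1 claudin fell, where 11.6% fell. Against TG0, 2 connexins and 4 claudins rose in MT0 and 1 connexin and 1 claudin fell, with 11.4% of all genes higher and 9.42% lower. One of those connexins, cx35b, had 10 or more counts in the MT0 libraries alone and is a member only through them, so the choice of members fixed its direction. The claudins that rose made up 30.8% of the 13 in either comparison, and the connexins that rose against WT0 21.4% of the 14. Between the controls, TG0 against WT0, 1 connexin and 1 claudin rose, with 11.1% of all genes higher and 11.3% lower. The same MT0 libraries enter both comparisons, so the calls against WT0 and TG0 are not independent. Each uninjured group also serves as the reference for injury in its genotype, so those calls share libraries with the calls here.

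The genotypes were also compared after injury. In MT7 against WT7, 3 claudins rose and 2 connexins fell, with 4.60% of all genes higher and 5.62% lower. Without MT7 replicate 1, only 1 claudin, cldn7a, and 1 connexin, cx45.6, were still called there. In MT7 against TG7, 1 connexin fell, with 0.742% of all genes higher and 2.04% lower, and 0 claudins passed the edgeR test, 4 at an unadjusted p under 0.05 and 1 (cldng) by DESeq2. Over all genes DESeq2 called 1119 there, where edgeR called 141 higher and 387 lower. In TG7 against WT7, 1 claudin rose and 1 connexin fell, with 0.847% of all genes higher and 0.289% lower.

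The response to injury was read within each genotype. In MT7 against MT0, 2 connexins and 3 claudins rose and 1 connexin fell, with 5.56% of all genes higher and 6.48% lower, and without MT7 replicate 1 the calls left were cx43.4, cx32.2 and cldnc. In TG7 against TG0, 5 connexins and 3 claudins rose, with 6.69% of all genes higher and 2.68% lower. In WT7 against WT0, 2 connexins and 2 claudins rose and 2 connexins fell, with 13.2% of all genes higher and 11% lower. The 5 connexins called in TG were 35.7% of the 14, and the claudins called were 15.4% to 23.1% of the 13 in the 3 genotypes. Whether the response itself differed between genotypes was tested as an interaction. Between MT and WT, 0 connexins passed the edgeR test (3 at an unadjusted p under 0.05, and 1, cx43, by DESeq2) and 1 claudin was higher, with 0.463% of all genes higher and 1.51% lower. Between MT and TG, 0 connexins passed (2 at an unadjusted p under 0.05, and 1, cx43, by DESeq2) and 1 claudin was lower, with 0.347% of all genes higher and 1.06% lower. Over all genes DESeq2 called 1192 in the first interaction and 916 in the second, where edgeR called 88 and 66 higher and 287 and 202 lower. These 11 comparisons gave 50 calls. With each library left out in turn, 13 of the 50 held throughout and none changed direction. Fitted on the compared libraries alone, MT7 against MT0 kept 0 members, MT0 against WT0 lost cx41.8, cx39.4, gja3, cx43.4, cldn5a and cldn5b, MT0 against TG0 lost cx45.6 and cldn5b, and TG0 against WT0 lost both of its calls. The same fit lost cldnc in MT7 against WT7, and cx43 and cldn5a in WT7 against WT0. It gave no value for cldng in MT7 against WT7 or MT0, or for cldn10l2 in MT0 against TG0, which its low-count filter removed.

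The 3 connexins with the highest mean CPM, gja3, cx45.6 and cx41.8, each fell in mutant apices in at least 1 comparison. gja3, whose mammalian counterpart is a lens connexin and which is needed for conduction in the embryonic zebrafish ventricle, had 56.9 and 105 CPM in MT7, 162 and 110 CPM in MT0, 150 and 172 CPM in TG7, 233 and 234 CPM in TG0, 159 and 147 CPM in WT7, and 318 and 247 CPM in WT0. Both MT0 libraries lay below both TG0 and both WT0 libraries, and within WT the injured libraries lay below the uninjured ones. The log2 fold change was -1.06 ± 0.27 (SE) in MT0 against WT0 (adjusted p = 0.0184) and -0.78 ± 0.27 against TG0, where the test was not passed (adjusted p = 0.0639) but was with DESeq2 (adjusted p = 0.0278), on the compared libraries alone (adjusted p = 0.0416) and without either MT7 library. After injury it was -0.92 ± 0.27 in MT7 against WT7 (adjusted p = 0.0598) and -0.99 ± 0.27 against TG7 (adjusted p = 0.0927). DESeq2 called both (adjusted p = 0.018 and 0.014), and the fit with no low-count filter called the first (adjusted p = 0.0402). Over all genes DESeq2 called 2544 in MT7 against WT7 and 1119 against TG7. Without MT7 replicate 2 the gja3 values were -1.41 and -1.50. That fit rests on MT7 replicate 1, at 56.9 CPM, whereas MT7 replicate 2 had 105 CPM. Injury gave -0.88 ± 0.27 in WT (adjusted p = 0.0378), with values of -0.74 ± 0.27 in MT and -0.53 ± 0.27 in TG that did not pass. The value in MT was -1.26 without MT7 replicate 2, and that in TG was called on the compared libraries alone (adjusted p = 0.0157). Without MT7 replicate 1, gja3 was not called in MT7 against WT7, TG7 or MT0. MT7 replicate 2, at 105 CPM, was above the MT7 mean of 81.1 CPM, so the falls are smaller on that library alone. It still lay below both libraries of WT7, TG7 and MT0, but only narrowly below MT0 replicate 2, at 110 CPM. The means were 153 CPM in WT7, 161 CPM in TG7 and 136 CPM in MT0. The call in MT0 against WT0 was lost without WT0 replicate 1 (-0.85) or MT0 replicate 2 (-0.79), and that in WT7 against WT0 without WT0 replicate 1 (-0.69), either WT7 library (-0.94 and -0.82) or any of the 4 TG libraries, and with a replicate block (adjusted p = 0.0549).

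Of the 8 cardiomyocyte markers, 3 were called lower and 1 higher in MT0 against WT0, where 11.6% and 13.6% of all genes were. In MT7, 6 were lower against WT7 and 4 against MT0, where 5.62% and 6.48% of all genes were. Against the TG group of the same state, 2 were lower in MT0 and 1 in MT7, where 9.42% and 2.04% of all genes were. These MT7 counts were not redone without MT7 replicate 1, whose marker sum was 27680 CPM against 40370 CPM in replicate 2. With 11% of all genes lower and 13.2% higher in WT7 against WT0, where gja3 fell, 0 markers were called lower and 1 was called higher. That was the ventricular myosin gene vmhc, with 1228 and 1428 CPM in WT7, against 279 and 397 CPM in WT0. The median log2 fold change of the 8 markers was -0.39 there. They summed to 69150 and 64350 CPM in WT7 and to 91190 and 83820 CPM in WT0. Per 1000 CPM of the 8 summed cardiomyocyte markers, a scale added after the values were seen, gja3 had 2.05 and 2.61 CPM in MT7, 2.27 and 2.20 CPM in MT0, 2.61 and 2.67 CPM in TG7, 2.55 and 2.37 CPM in TG0, 2.29 and 2.29 CPM in WT7, and 3.49 and 2.94 CPM in WT0. On this scale the WT0 libraries were still the highest, and the MT7 libraries fell on either side of the WT7 ones. The MT0 libraries lay below the TG0 ones, and the TG7 libraries lay above the TG0 ones, the reverse of their order in CPM. The part of the marker shift in the gja3 result was not tested.

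cx45.6 and cx41.8 are the paired zebrafish copies of the gene for GJA5, the connexin of atrial and conduction-system muscle in mammals, and they were called in different comparisons. cx45.6 had 32.2 and 34.6 CPM in MT7, 86.0 and 56.3 CPM in MT0, 74.1 and 86.4 CPM in TG7, 103 and 126 CPM in TG0, 93.5 and 75.9 CPM in WT7, and 82.3 and 103 CPM in WT0. The MT7 libraries were the lowest of all 12. It fell by 1.34 on the log2 scale in MT7 against WT7 (SE 0.21, adjusted p = 0.00459), by 1.26 against TG7 (SE 0.21, adjusted p = 0.0137) and by 1.09 against MT0 (SE 0.21, adjusted p = 0.0115). Its injury response was -0.13 ± 0.21 in WT (adjusted p = 0.687) and -0.52 ± 0.21 in TG (adjusted p = 0.14), neither of which passed, and the difference of response between MT and WT was -0.96 ± 0.30 (adjusted p = 0.124).

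Leaving out MT7 replicate 1 moved these cx45.6 values little, to -1.27 against WT7 (adjusted p = 0.0375), -1.21 against TG7 (adjusted p = 0.0981) and -1.05 against MT0 (adjusted p = 0.0791). The call against WT7 was lost without WT7 replicate 1 (-1.17), that against TG7 without either TG7 library (-1.38 and -1.15) and that against MT0 without MT0 replicate 1 (-0.76). Its call in MT0 against TG0 (-0.69 ± 0.21, adjusted p = 0.0392) held in few settings and was lost without TG0 replicate 1 (-0.82), TG0 replicate 2 (-0.53) or MT0 replicate 2 (-0.41), without any of 6 further libraries, and with a replicate block (adjusted p = 0.0583). Per 1000 CPM of the cardiomyocyte markers, cx45.6 had 1.16 and 0.858 CPM in MT7 and 0.903 to 1.35 CPM in the other libraries.

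cx41.8, which shapes the pigment pattern of zebrafish skin as the leopard gene, had 46.4 and 40.9 CPM in MT7, 48.8 and 65.8 CPM in MT0, 49.3 and 56.1 CPM in TG7, 64.6 and 76.7 CPM in TG0, 55.3 and 53.5 CPM in WT7, and 90.6 and 79.5 CPM in WT0. The WT0 libraries were the highest. It fell by 0.57 on the log2 scale in MT0 against WT0 (SE 0.16, adjusted p = 0.0266) and by 0.64 in WT7 against WT0 (SE 0.16, adjusted p = 0.0175). Both calls use the same WT0 libraries, as those of gja3 do, and are not independent. Against TG0 the difference in MT0 was -0.30 ± 0.16 and did not pass (adjusted p = 0.208). Injury gave -0.42 ± 0.16 in TG (adjusted p = 0.121) and -0.39 ± 0.16 in MT (adjusted p = 0.13). Neither passed, although the injured libraries lay below the uninjured ones in both. The first call was lost without WT0 replicate 1 (-0.46), MT0 replicate 1 (-0.36) or either WT7 library, and the second without WT0 replicate 1 (-0.54) or either WT7 library (-0.67 and -0.61). Per 1000 CPM of cardiomyocyte markers its order was different, with 1.68 and 1.01 CPM in MT7, 0.684 and 1.32 CPM in MT0 and 0.706 to 0.993 CPM in the 8 libraries of TG and WT.

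cx36.7, the ftk gene that is needed for myofibril assembly in the embryonic zebrafish heart and acts upstream of nkx2.5 there, was scarce in every group. It had 3.48 and 1.93 CPM in MT7, 2.6 and 4.44 CPM in MT0, 3.82 and 3.27 CPM in TG7, 2.87 and 4.63 CPM in TG0, 1.65 and 1.94 CPM in WT7, and 1.22 and 3.06 CPM in WT0. Groups overlapped widely, and its smallest adjusted p over the 11 comparisons was 0.246.

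**Figure D2:**
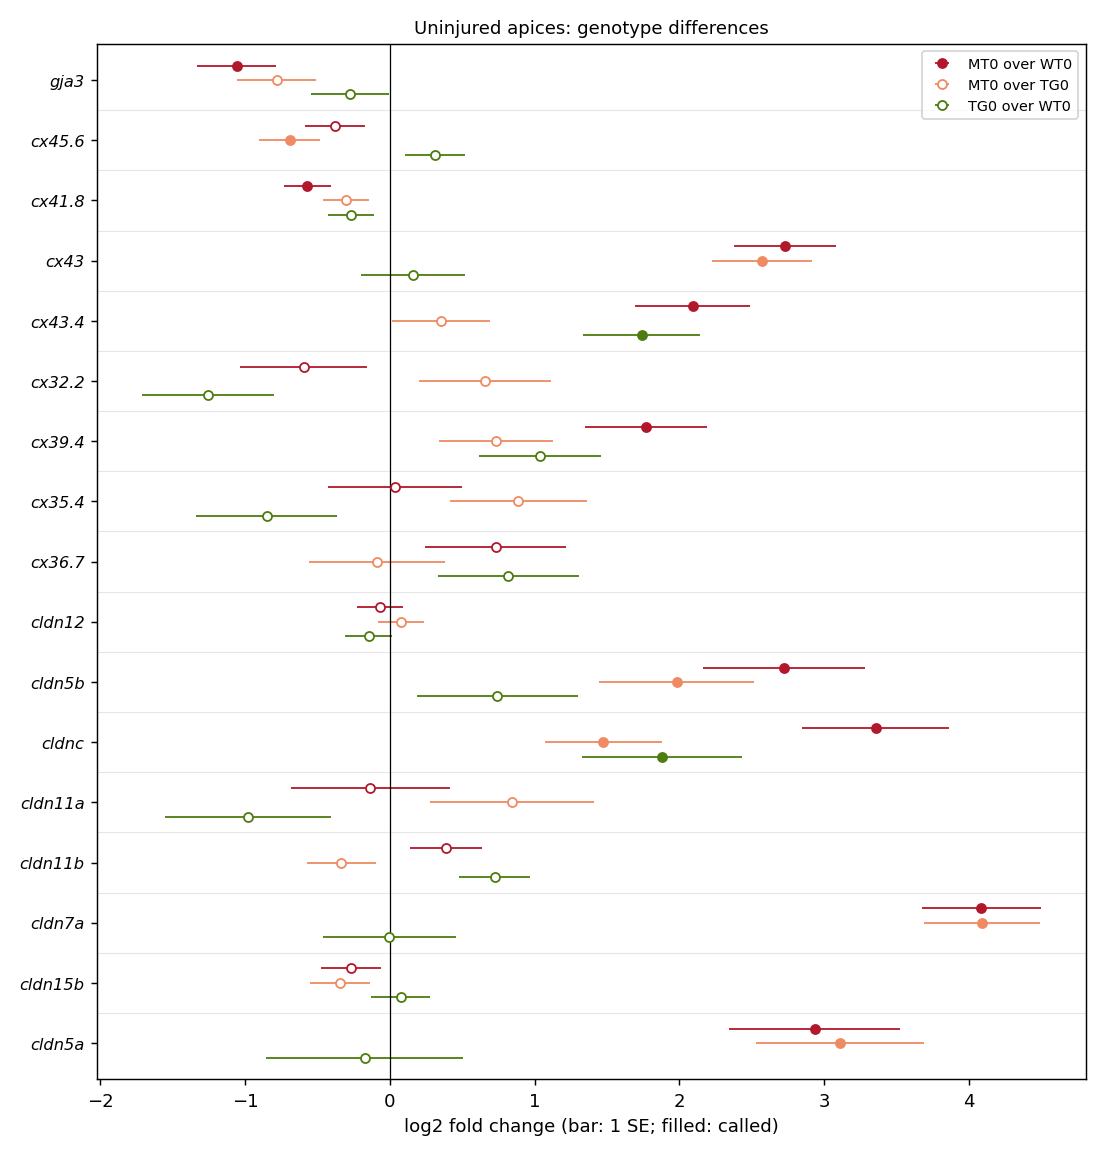
Log2 fold change (x axis, bar 1 SE) of the 17 members with a mean of at least 2 CPM between the uninjured genotypes, with filled points for calls. cx43 and cldn7a lay at 2.57 or higher in MT0 against both controls and at 0.16 or lower in TG0 against WT0, whereas cx43.4 and cldnc were also higher in TG0 than in WT0.

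cx43, the counterpart of the main ventricular connexin of mammals and in zebrafish a regulator of fin bone length, went in the opposite direction to gja3. It had 21.3 and 25.7 CPM in MT7, 26.5 and 46.9 CPM in MT0, 15.1 and 17.8 CPM in TG7, 6.89 and 5.48 CPM in TG0, 10.8 and 13.8 CPM in WT7, and 3.66 and 7.46 CPM in WT0. All 4 mutant libraries lay above all 8 control libraries, and the uninjured mutants were the highest. In MT0 it was 6.63-fold higher than in WT0 (log2 fold change 2.73 ± 0.35, adjusted p = 6.9e-04) and 5.95-fold higher than in TG0 (2.57 ± 0.35, adjusted p = 8.6e-04). Both calls held with every library left out in turn and in every alternative setting, at 2.27 to 3.34 and 2.11 to 2.93. TG0 and WT0 differed by 0.16 ± 0.36 (adjusted p = 0.783).

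cx43 rose with injury in both control genotypes, and its value in the mutants did not pass the test. The log2 fold change was 1.42 ± 0.34 in TG (adjusted p = 0.03) and 1.15 ± 0.35 in WT (adjusted p = 0.0363), and -0.64 ± 0.32 in MT (adjusted p = 0.204). The difference between these responses was -1.79 ± 0.47 for MT against WT (adjusted p = 0.0838) and -2.06 ± 0.46 for MT against TG (adjusted p = 0.0656), and neither passed. DESeq2, the fit without a low-count filter and the fit without WT0 replicate 2 called cx43 in both interactions, and the fit on the compared libraries alone and those without WT0 replicate 1 or MT0 replicate 1 called it for MT against TG. The call in TG was lost without any of the 4 libraries compared (1.26 to 1.59) or either WT7 library, and that in WT without WT0 replicate 1 (0.72), either WT7 library (1.31 and 0.97) or any of the 4 TG libraries. After injury, MT7 against WT7 gave 0.94 ± 0.32, which did not pass with edgeR (adjusted p = 0.0969) but did with DESeq2 (adjusted p = 0.0449) and on the compared libraries alone (adjusted p = 0.0235). MT7 against TG7 gave 0.51 ± 0.32 (adjusted p = 0.481), and neither edgeR nor DESeq2 called it.

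The summed smooth muscle and epicardial markers were also higher in MT0, although not every single marker was. Summed over 5 smooth muscle markers, MT0 libraries had 734 and 1286 CPM, TG0 libraries 278 and 468 CPM, and WT0 libraries 279 and 343 CPM. Summed over 6 epicardial markers, they had 250 and 395 CPM in MT0, 163 and 156 CPM in TG0, and 200 and 141 CPM in WT0. In injured apices the epicardial sum was 590 and 506 CPM in MT7, 426 and 426 CPM in TG7, and 296 and 357 CPM in WT7, and the smooth muscle sum was 878 and 1147 CPM in MT7, 778 and 707 CPM in TG7, and 677 and 851 CPM in WT7. No epicardial marker was at 0 in any library. In MT0 against WT0, 5 of 6 epicardial and 4 of 5 smooth muscle markers rose, where 13.6% of all genes did. Against TG0, 4 of 6 and 3 of 5 rose, where 11.4% of all genes did. tcf21 was lower in MT0 (22.7 and 25.7 CPM) than in TG0 (30.55 and 26.9 CPM), as was sema3d. Most of the epicardial sum was aldh1a2. Within each genotype injury raised 4 to 6 of the 6 epicardial markers, where 5.56% to 13.2% of all genes rose. The part of both marker sets in the cx43 result, and in those on cx43.4, cldnc and the cldn5 genes given next, was not tested.

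cx43.4, which in the zebrafish embryo acts in Kupffer's vesicle and left-right patterning, was the connexin raised by injury in every genotype. It had 34.0 and 17.9 CPM in MT7, 4.01 and 6.87 CPM in MT0, 18.7 and 16.1 CPM in TG7, 3.60 and 4.93 CPM in TG0, 11.99 and 13.5 CPM in WT7, and 1.29 and 1.27 CPM in WT0. No injured library overlapped an uninjured one of any genotype. It rose 4.73-fold in MT7 against MT0 (log2 fold change 2.24 ± 0.33, adjusted p = 0.00377), 4.06-fold in TG7 against TG0 (2.02 ± 0.33, adjusted p = 0.006) and 9.92-fold in WT7 against WT0 (3.31 ± 0.39, adjusted p = 6.0e-04). Without MT7 replicate 1 the MT value was 1.7 (adjusted p = 0.0213), and the TG call was lost without TG0 replicate 1 (1.82) or TG7 replicate 1 (1.91).

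Among uninjured apices cx43.4 was lowest in WT0. It was 4.27-fold higher in MT0 (log2 fold change 2.09 ± 0.40, adjusted p = 0.00468) and 3.34-fold higher in TG0 (1.74 ± 0.40, adjusted p = 0.0145) than in WT0. MT0 and TG0 libraries overlapped. The TG0 call was lost without WT0 replicate 1 (1.76) or TG0 replicate 2 (1.49). The difference in injury response between MT and WT was -1.07 ± 0.51 (adjusted p = 0.281) and that between MT and TG 0.22 ± 0.46 (adjusted p = 0.884).

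cx32.2 lies next to cx43 in the RefSeq gene order, with no protein-coding gene between them, and both of its calls were for injury. It had 9.90 and 14.6 CPM in MT7, 2.09 and 3.64 CPM in MT0, 8.37 and 8.06 CPM in TG7, 1.89 and 1.76 CPM in TG0, 6.17 and 11.3 CPM in WT7, and 2.71 and 6.04 CPM in WT0. The injured libraries lay above the uninjured ones in each genotype, narrowly so in WT. It rose by 2.09 ± 0.43 on the log2 scale in MT (adjusted p = 0.0138) and by 2.17 ± 0.45 in TG (adjusted p = 0.0165), and its value of 1.0 ± 0.42 in WT did not pass (adjusted p = 0.104). The MT call was lost without MT0 replicate 1 (1.74) and the TG call without any of the 4 libraries compared (2.12 to 2.22). The nearby cx28.9, cx32.3 and cx34.5 stayed under 10 counts in all but at most 1 library.

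cx39.4, which with cx41.8 builds the pigment-cell gap junctions of zebrafish and whose mammalian counterpart GJA4 is a connexin of arterial endothelium, had 2.57 and 3.74 CPM in MT7, 4.30 and 7.45 CPM in MT0, 2.85 and 4.54 CPM in TG7, 4.09 and 3.02 CPM in TG0, 3.11 and 3.23 CPM in WT7, and 1.22 and 2.24 CPM in WT0. It rose 3.41-fold in MT0 against WT0 (log2 fold change 1.77 ± 0.42, adjusted p = 0.0127), a call lost without WT0 replicate 1 (1.40) or MT0 replicate 2 (1.33). Against TG0 the value was 0.73 ± 0.39 (adjusted p = 0.213).

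The remaining connexins had few counts. cx35.4 had 5.84 and 4.75 CPM in MT7, 1.19 and 3.32 CPM in MT0, 5.98 and 4.29 CPM in TG7, 1.46 and 1.01 CPM in TG0, 3.35 and 4.15 CPM in WT7, and 1.76 and 2.68 CPM in WT0. It was higher in both injured libraries of each genotype, but only the TG comparison passed (log2 fold change 2.06 ± 0.47, adjusted p = 0.0253), and that call was lost without any of the 4 libraries compared (1.81 to 2.34) or either WT7 library. cx28.1 had 1.24 and 3.34 CPM in MT7, 0.283 and 0.853 CPM in MT0, 1.37 and 1.27 CPM in TG7, 0.122 and 0 CPM in TG0, 0.825 and 1.15 CPM in WT7, and 0.339 and 0.522 CPM in WT0. Its 55 counts in TG7 against 2 in TG0 gave a ratio of 23.8 (exact 95% interval 6.27 to 201, counting error only), and the call (adjusted p = 0.0246) was lost without any of those 4 libraries or either WT7 library.

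cx27.5, the copy of the gene for GJB1, a connexin of liver and myelinating cells in mammals, was higher in WT7 than in the other injured groups. It had 0.166 and 0.282 CPM in MT7, 0.396 and 0.314 CPM in MT0, 0.114 and 0.123 CPM in TG7, 0.732 and 0.201 CPM in TG0, 1.89 and 1.64 CPM in WT7, and 0.678 and 0.969 CPM in WT0. The log2 fold change was -2.94 ± 0.63 in MT7 against WT7 (adjusted p = 0.0179) and -3.82 ± 0.70 in TG7 against WT7 (adjusted p = 0.0331), from 11 and 5 counts against 76. The corresponding ratios were 0.128 (exact 95% interval 0.0612 to 0.242) and 0.0677 (0.0214 to 0.165). Each call was lost without any of the 4 libraries compared (-2.6 to -3.34 and -3.70 to -3.92), the second also without either MT0 library and with a replicate block (adjusted p = 0.0582). The sum of 5 glial markers, 6.96 and 10.3 CPM in MT7, 12.8 and 11 CPM in TG7, and 11.5 and 6.85 CPM in WT7, did not separate WT7 from the others.

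cx35b, a connexin of neuronal electrical synapses, entered the list through the MT0 libraries alone, the only libraries with 10 or more of its reads. It had 0.0828 and 0 CPM in MT7, 0.791 and 0.628 CPM in MT0, 0.114 and 0.0409 CPM in TG7, 0 and 0 CPM in TG0, 0.291 and 0.0884 CPM in WT7, and 0.610 and 0 CPM in WT0. Its call in MT0 against TG0 was set by the rule that admitted it, and nothing is read from it. WT0 replicate 1 reached a level near that of MT0. cx30.3 had 3.87 CPM in TG7 replicate 1 and 0.286 to 1.31 CPM in the other 11 libraries. cx34.4 had 0.911 and 0.603 CPM in MT7, 0.0565 and 0.224 CPM in MT0, 0.399 and 0.491 CPM in TG7, 0.122 and 0.0503 CPM in TG0, 0.777 and 0.221 CPM in WT7, and 0.136 and 0 CPM in WT0, with a smallest adjusted p of 0.10 over the 11 comparisons.

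**Figure D3:**
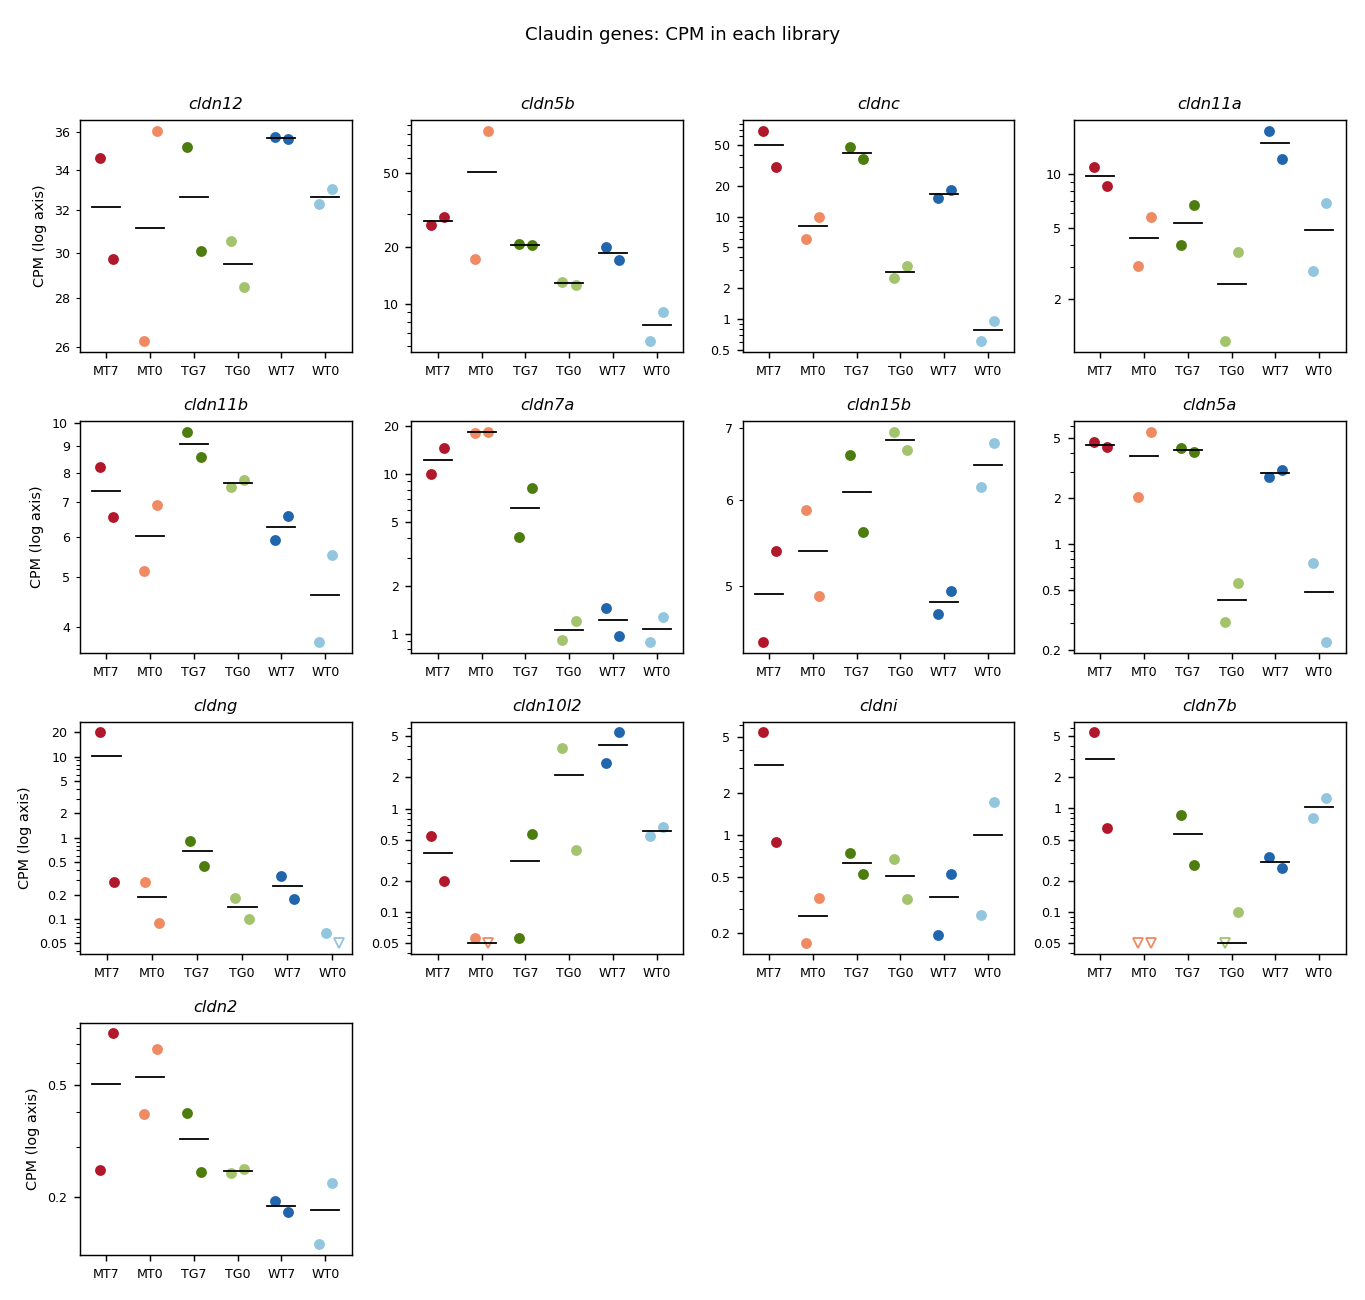
CPM (log axis) of the 13 claudin members in each of the 12 libraries, by group, with a bar at the mean of the 2 libraries of a group (left point replicate 1, right point replicate 2) and open triangles for libraries under 0.05 CPM. cldn12 stayed between 26.2 and 36.1 CPM, cldnc was lowest in WT0, and cldn7a was higher in all 4 mutant libraries than in any other library.

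Among the claudins, cldn7a gave the clearest separation by genotype. It is a copy of the gene for CLDN7, a claudin of epithelia in mammals. It had 9.98 and 14.6 CPM in MT7, 18.03 and 18.5 CPM in MT0, 4.04 and 8.18 CPM in TG7, 0.915 and 1.21 CPM in TG0, 1.46 and 0.972 CPM in WT7, and 0.881 and 1.27 CPM in WT0. The 4 mutant libraries were the highest, the TG7 libraries came next, and TG0, WT7 and WT0 overlapped. MT0 was 17.0-fold higher than WT0 (log2 fold change 4.09 ± 0.41, adjusted p = 1.9e-04) and than TG0 (4.09 ± 0.40, adjusted p = 1.8e-04), and MT7 was 10.1-fold higher than WT7 (3.34 ± 0.38, adjusted p = 9.9e-04). These 3 calls held with each library left out and in every alternative setting, with 3.60 in MT7 against WT7 without MT7 replicate 1. Against TG7, the injured group that differs from MT7 in the mutation alone by named genotype, cldn7a was not called in MT7. The log2 fold change there was 0.997 ± 0.336 (adjusted p = 0.162), although both MT7 libraries lay above both TG7 libraries.

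Within the genotypes, injury gave -0.57 ± 0.33 in MT (adjusted p = 0.273) and 0.18 ± 0.44 in WT (adjusted p = 0.796) for cldn7a, neither of which passed. It rose 5.74-fold in TG7 against TG0 (log2 fold change 2.52 ± 0.39, adjusted p = 0.00439) and was 5.07-fold higher in TG7 than in WT7 (2.34 ± 0.38, adjusted p = 0.0216). The response in MT was lower than that in TG by 3.09 on the log2 scale (SE 0.51, adjusted p = 0.0234), and against WT the difference was -0.75 ± 0.55 (adjusted p = 0.495). The rise in TG was lost without TG0 replicate 1 (2.34), and TG7 against WT7 without TG7 replicate 2 (1.74), either WT7 library (2.66 and 2.07) or either MT0 library. The interaction was lost without either TG0 library (-2.92 and -3.33), TG7 replicate 2 (-2.5), MT0 replicate 2 (-3.09), MT7 replicate 1 (-2.86) or either WT7 library.

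cldnc, listed as cldn3d in RefSeq and related to the epithelial claudin CLDN3, had the widest reach across comparisons, with 7 of the 9 pairwise comparisons called. It had 68.5 and 30.4 CPM in MT7, 6.11 and 9.96 CPM in MT0, 47.2 and 36.6 CPM in TG7, 2.5 and 3.27 CPM in TG0, 15.1 and 18.2 CPM in WT7, and 0.610 and 0.969 CPM in WT0. All 6 injured libraries lay above all 6 uninjured ones, and within each state WT was the lowest. It rose 6.12-fold in MT7 against MT0 (log2 fold change 2.61 ± 0.37, adjusted p = 0.00351), 14.4-fold in TG7 against TG0 (3.85 ± 0.41, adjusted p = 6.1e-04) and 21.1-fold in WT7 against WT0 (4.40 ± 0.50, adjusted p = 5.0e-04). Each of these held with every library left out, the first at 1.91 without MT7 replicate 1. The difference between the responses was -1.78 ± 0.63 for MT against WT (adjusted p = 0.168) and -1.24 ± 0.53 for MT against TG (adjusted p = 0.303), and neither passed.

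In uninjured apices cldnc was 10.2-fold higher in MT0 than in WT0 (log2 fold change 3.36 ± 0.51, adjusted p = 0.00155), 2.78-fold higher in MT0 than in TG0 (1.48 ± 0.41, adjusted p = 0.0271) and 3.68-fold higher in TG0 than in WT0 (1.88 ± 0.55, adjusted p = 0.0336). The first held with every library left out. The second was lost without MT0 replicate 2 (1.08) or either TG0 library (1.31 and 1.7), and the third without any of the 4 libraries compared (1.58 to 2.25) or either WT7 library. After injury MT7 was 2.97-fold higher than WT7 (1.57 ± 0.36, adjusted p = 0.0218), a call lost without MT7 replicate 1 (0.89, adjusted p = 0.143) or either WT7 library (1.46 and 1.7). MT7 and TG7 differed by 0.24 ± 0.34 (adjusted p = 0.803).

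The claudins cldn5a and cldn5b, copies of the gene for CLDN5 of the endothelial barrier, were both higher in MT0 than in the uninjured controls. cldn5a had 4.68 and 4.38 CPM in MT7, 2.04 and 5.52 CPM in MT0, 4.27 and 4.05 CPM in TG7, 0.305 and 0.553 CPM in TG0, 2.77 and 3.09 CPM in WT7, and 0.746 and 0.224 CPM in WT0. The TG0 and WT0 libraries were the lowest, and MT0 replicate 1 alone came between them and the rest. MT0 was 7.64-fold higher than WT0 (log2 fold change 2.93 ± 0.59, adjusted p = 0.00612) and 8.62-fold higher than TG0 (3.11 ± 0.58, adjusted p = 0.00474), the second lost without TG0 replicate 1 (2.77). Injury raised it 9.42-fold in TG (3.24 ± 0.58, adjusted p = 0.00885) and 5.90-fold in WT (2.56 ± 0.59, adjusted p = 0.0126). Those calls were lost without either TG0 library (2.90 and 3.75) or TG7 replicate 1 (3.21), and without either WT7 library (2.63 and 2.49). The difference between the responses was -2.98 ± 0.75 for MT against TG (adjusted p = 0.0887) and -2.31 ± 0.76 for MT against WT (adjusted p = 0.145), neither of which passed. DESeq2 (adjusted p = 0.0122) and the fit without MT0 replicate 1 (adjusted p = 0.0433) called the first.

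cldn5b had 26.5 and 28.9 CPM in MT7, 17.4 and 83.9 CPM in MT0, 20.9 and 20.5 CPM in TG7, 13.1 and 12.7 CPM in TG0, 20.1 and 17.1 CPM in WT7, and 6.31 and 9.10 CPM in WT0. MT0 replicate 2 stood far above the other 11 libraries. MT0 was 6.61-fold higher than WT0 (log2 fold change 2.72 ± 0.56, adjusted p = 0.00685) and 3.95-fold higher than TG0 (1.98 ± 0.53, adjusted p = 0.0248). Without MT0 replicate 2 the values were 1.19 against WT0, still called, and 0.44 against TG0 (adjusted p = 0.224). The first call was lost without WT0 replicate 1 (2.49) and the second without either TG0 library (2.0 and 1.97). MT0 replicate 2 also had 722 CPM of the smooth muscle gene tagln, against 134 CPM in MT0 replicate 1. The 9 endothelial and endocardial markers summed to 901 and 836 CPM in MT0, 878 and 813 CPM in TG0, and 1233 and 922 CPM in WT0, so that MT0 overlapped TG0 and lay below WT0. In injured apices they summed to 563 and 746 CPM in MT7, 678 and 749 CPM in TG7, and 651 and 619 CPM in WT7. With injury, 6 of the 9 were called lower in WT, 0 in TG and 1 in MT, where 11%, 2.68% and 6.48% of all genes were.

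**Figure D4:**
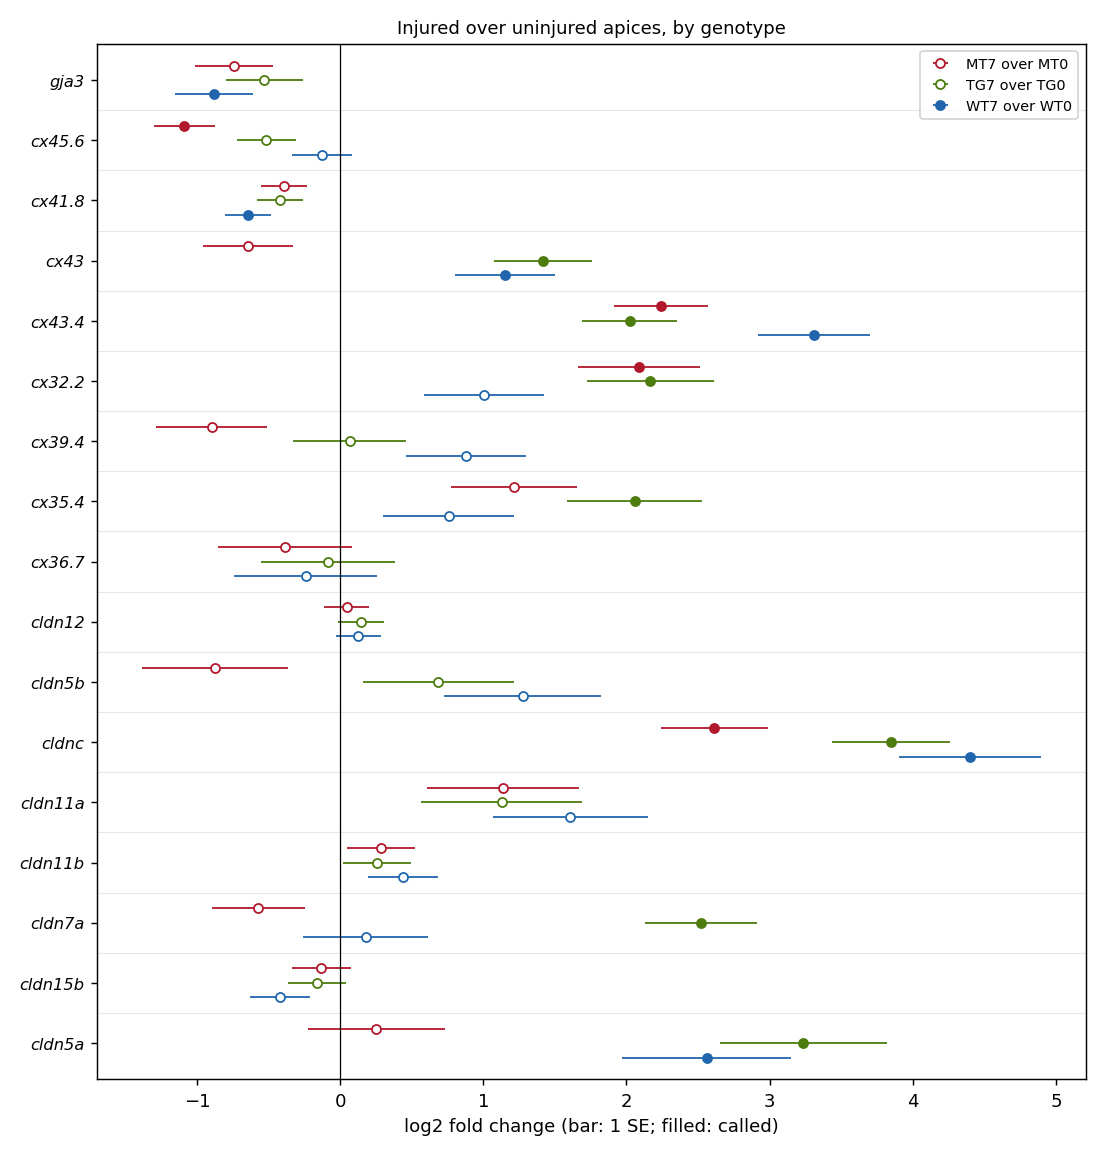
Log2 fold change (x axis, bar 1 SE) of injured over uninjured apices within MT, TG and WT for the 17 members with a mean of at least 2 CPM, with filled points for calls. cldnc and cx43.4 were called in all 3 genotypes, whereas cx43 and cldn5a were called in TG and WT and lay at -0.64 and 0.25 in MT.

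The members cldng, cldni and cldn7b had their highest values in MT7 replicate 1, the library with epcam and krt5. cldng had 19.9 CPM in that library and 0.282 CPM in MT7 replicate 2, 0.283 and 0.0898 CPM in MT0, 0.911 and 0.450 CPM in TG7, 0.183 and 0.101 CPM in TG0, 0.340 and 0.177 CPM in WT7, and 0.0678 and 0 CPM in WT0. It was called in MT7 against WT7 (log2 fold change 5.27 ± 1.48, adjusted p = 0.0493) and against MT0 (5.77 ± 1.56, adjusted p = 0.0389), although the groups overlapped in both. Without MT7 replicate 1 the values were 0.15 (adjusted p = 0.975) and 0.62 (adjusted p = 0.831), and leaving out 1 library ended the calls in 11 and 9 of 12 cases. cldni had 5.34 CPM there, 0.885 CPM in MT7 replicate 2 and 0.170 to 1.72 CPM in the other libraries, and was not called by edgeR.

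cldn7b, the other copy of the CLDN7 gene, had 5.38 and 0.643 CPM in MT7, 0 and 0 CPM in MT0, 0.854 and 0.286 CPM in TG7, 0 and 0.101 CPM in TG0, 0.340 and 0.265 CPM in WT7, and 0.814 and 1.27 CPM in WT0. It was called lower in MT0 than in WT0 (adjusted p = 0.0228), at least 6.84-fold with 3 counts per library as the limit in MT0. It was called higher in MT7 than in MT0 (adjusted p = 0.0157), at least 19.8-fold by the same limit (at least 4.23-fold without MT7 replicate 1), and its injury response differed between MT and WT (adjusted p = 0.0464). The first call was lost without any of the 4 libraries compared. Without MT7 replicate 1 the second (adjusted p = 0.0708) and the interaction (adjusted p = 0.0971) were lost, and so they were without either MT0 library. The interaction held in only 2 of the 12 leave-outs and was also lost with a replicate block (adjusted p = 0.0632) and on the compared libraries alone (adjusted p = 0.106). Its pattern in uninjured apices ran against that of cldn7a, which was 17.0-fold higher in MT0 than in WT0. The epithelial gene krt5 had 5.09 and 50.03 CPM in WT0 and 0.283 and 0.269 CPM in MT0. epcam had 0 and 0.820 CPM in WT0 and 0 and 0 CPM in MT0. The part of such transcripts in the cldn7b call between MT0 and WT0 was not tested.

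**Figure D5:**
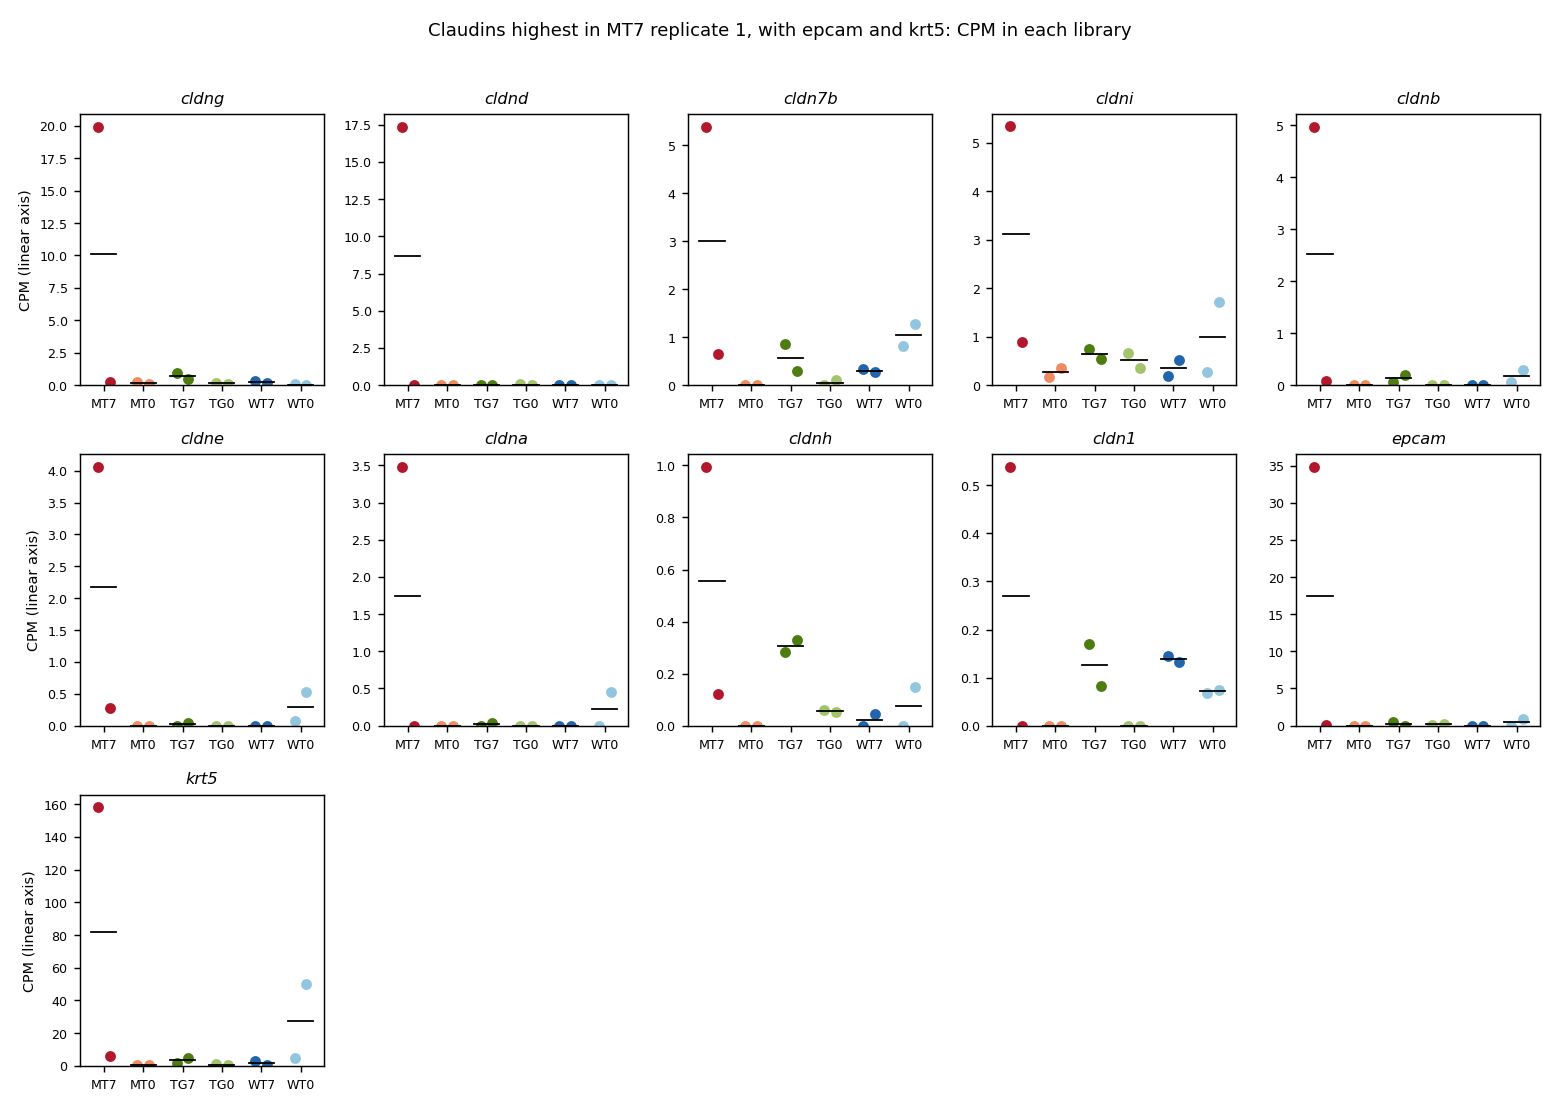
CPM (linear axes, starting at 0) in each library, with a bar at the mean of the 2 libraries of a group (left point replicate 1, right point replicate 2), for the 9 claudins that were over 3 times higher in MT7 replicate 1 than in any other library, and for epcam and krt5. Of the claudins, cldng, cldn7b and cldni are members, and the second MT7 library lay near the other groups in each panel.

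The same library held most of the claudins just outside the rule. Of the 19 claudin symbols that were left out, 8 reached 10 counts in 1 library, and for 7 of them that library was MT7 replicate 1. They included cldnd with 419 counts and cldnb and cldne, which are genes of the zebrafish skin, with 120 and 98. cldnb had 4.97 CPM in MT7 replicate 1 and at most 0.298 CPM elsewhere. cldn20, cx50.5 and cx55.5 missed the rule with 12, 11 and 11 counts in their single best library, while cx35b, with 14 in its best, and cldn2, with 19, met it in 2 libraries. Of the 18 connexin symbols left out, 4 reached 10 counts once, with cx44.2 at 77 counts in MT7 replicate 1, and 1 had no count in any library.

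Some members lie beside other family genes on the chromosome. cldnc is next to cldnh and to cldnb in the RefSeq order, and 2 protein-coding genes separate it from cldnd. cldnh, cldnb and cldnd were over 3 times higher in MT7 replicate 1 than in any other library, whereas cldnc was high in all 6 injured libraries. gja3 is adjacent to cx30.3 and cx34.4 to cx35.4, and cx45.6 and cx41.8 are adjacent to cx50.5 and cx44.1, which had under 10 counts in all but at most 1 library. The gene order is that of GRCz12tu, not the build of the alignment, so no coordinates are given, and reads shared between near-identical copies in such clusters may have been split or dropped.

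cldn10l2 had 0.538 and 0.201 CPM in MT7, 0.0565 and 0.0449 CPM in MT0, 0.0570 and 0.573 CPM in TG7, 3.84 and 0.402 CPM in TG0, 2.77 and 5.43 CPM in WT7, and 0.542 and 0.671 CPM in WT0. The call in MT0 against TG0 (log2 fold change -5.22 ± 1.36, adjusted p = 0.0216) rested on 2 counts against 71, a ratio of 0.0256 (exact 95% interval 0.00304 to 0.0958), and the TG0 libraries differed more from each other than most groups did. Without TG0 replicate 1 it was -2.85 (adjusted p = 0.205), and the call was also lost without either MT0 library (-5.36 and -5.06).

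The other claudins had no call. cldn12, whose mammalian counterpart lacks the usual scaffold-binding tail of claudins, had 34.6 and 29.7 CPM in MT7, 26.2 and 36.1 CPM in MT0, 35.2 and 30.1 CPM in TG7, 30.6 and 28.5 CPM in TG0, 35.7 and 35.6 CPM in WT7, and 32.3 and 33.0 CPM in WT0. cldn15b, related to a channel-forming claudin of the intestine, lay between 4.43 and 6.95 CPM in all libraries. cldn11b, a copy of the gene for CLDN11 of myelin and testis, lay between 3.73 and 9.62 CPM. Its sister copy cldn11a had 10.9 and 8.53 CPM in MT7, 3.05 and 5.70 CPM in MT0, 3.99 and 6.67 CPM in TG7, 1.16 and 3.67 CPM in TG0, 17.4 and 12.1 CPM in WT7, and 2.85 and 6.86 CPM in WT0. It was higher in both injured libraries of each genotype, with a smallest adjusted p of 0.0523. cldn2, a cation-pore claudin of leaky epithelia, lay between 0.136 and 0.764 CPM. Over the 9 members without a call, 12 of their comparisons had an unadjusted p under 0.05, and DESeq2 made 4 calls, 1 for cldn11a and 3 for cldni.

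Genes whose products work beside the claudins at the junction were counted as a list. Of 42 listed tight junction partners (ZO scaffolds, junctional adhesion molecules, MARVEL proteins and polarity proteins), 23 of the 29 found by symbol could be tested. In MT0 against WT0, 9 rose and 2 fell, where 13.6% and 11.6% of all genes did, with a median log2 fold change of 0.38 over the 23 against 0.02 over all genes tested. The largest were jam3a (1.64 ± 0.25, adjusted p = 0.0016) and jam2b (1.48 ± 0.41, adjusted p = 0.0259), adhesion molecules of endothelial and other junctions, and jam3b fell by 1.06 (SE 0.27, adjusted p = 0.0182). In TG0 against WT0, 3 partners rose and 1 fell, where 11.1% and 11.3% of all genes did. Among them were jam2b (1.48, adjusted p = 0.0292) and jam3b (-0.92, adjusted p = 0.0348), and neither was called in MT0 against TG0. jam3a had 18.1 and 32.4 CPM in MT7, 57.2 and 50.9 CPM in MT0, 24.6 and 23.6 CPM in TG7, 29.3 and 23.4 CPM in TG0, 13.4 and 12.8 CPM in WT7, and 19.6 and 14.9 CPM in WT0. Its MT0 libraries were the highest of all.

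Against TG0, 3 partners rose in MT0, among them jam3a (1.04 ± 0.24, adjusted p = 0.0138) and the scaffold magi1b (0.86 ± 0.18, adjusted p = 0.00741), and 1 fell, where 11.4% and 9.42% of all genes did. Injury raised 4 partners in MT and lowered 3, with 5.56% of all genes higher and 6.48% lower. It raised 1 in TG, where 6.69% of all genes rose, and 7 in WT, where 13.2% did. jam2b was called in each genotype, at 1.84 ± 0.35 in MT (adjusted p = 0.0105, and 1.47 with adjusted p = 0.0776 without MT7 replicate 1), 1.92 ± 0.35 in TG (adjusted p = 0.0101) and 2.99 ± 0.40 in WT (adjusted p = 0.00114). The ZO scaffold tjp2a rose in MT (2.43 ± 0.39, adjusted p = 0.00521), also without MT7 replicate 1 (1.79, adjusted p = 0.0327), and WT (1.60 ± 0.40, adjusted p = 0.0184). Of the 7 calls in MT7 against MT0, tjp2a was the 1 left without that library. In MT7 against WT7, 3 partners rose and 2 fell, where 4.60% and 5.62% of all genes did, the largest change being in the epithelial ZO scaffold tjp3 (5.27 ± 1.20, adjusted p = 0.0225, and 2.57 with adjusted p = 0.197 without MT7 replicate 1), and only jam3a was still called without that library (1.32, adjusted p = 0.00821). In MT7 against TG7, the scaffold magi3a fell by 1.14 (SE 0.19, adjusted p = 0.0128, and 0.0984 without MT7 replicate 1). In TG7 against WT7, 0 partners passed, with 1 at an unadjusted p under 0.05.

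Of 31 listed intercalated disc genes, which join heart muscle cells at their ends beside the gap junctions, 18 were found by symbol and tested. In MT0 against WT0, 3 rose and 2 fell, where 13.6% and 11.6% of all genes did. The desmosomal plaque gene pkp1b (-2.23 ± 0.66, adjusted p = 0.0326) and the catenin ctnna2 (2.1 ± 0.62, adjusted p = 0.0319) lay furthest apart. The desmosomal cadherin dsg2.1 was at 1.82 ± 0.45 (adjusted p = 0.0158) and the membrane anchor ank3b at -1.71 ± 0.17 (adjusted p = 1.8e-04). Of these named genes, only ank3b stayed called with each library left out in turn, and pkp1b had just 0.170 and 0.224 CPM in MT0, with 0.122 and 0.704 CPM in TG0. Against TG0, 2 disc genes rose in MT0 and 1 fell, where 11.4% and 9.42% of all genes did. dsg2.1 (2.31, adjusted p = 0.00636) and ank3b (-0.70, adjusted p = 0.0141) were called there, whereas pkp1b and ctnna2 were not. In TG0 against WT0, 1 rose and 2 fell, where 11.1% and 11.3% of all genes did, and ank3b was at -1.01 (adjusted p = 0.00339). In MT7 against WT7, 4 rose and 1 fell, where 4.60% and 5.62% of all genes did. The 1 that fell was ank3b (-1.05, adjusted p = 0.0046, and -0.95 without MT7 replicate 1). In MT7 against TG7, 0 rose and 1 fell, again ank3b (-0.75, adjusted p = 0.0442), where 0.742% and 2.04% of all genes did. Injury raised 4 and lowered 4 in MT, of which 4 were left without MT7 replicate 1, with 5.56% of all genes higher and 6.48% lower. It raised 3 in TG, where 6.69% of all genes rose, and raised 3 and lowered 6 in WT, where 13.2% and 11% of all genes did. cxadr, a virus receptor and adhesion molecule of the disc, and dsg2.1 rose in each genotype, dsg2.1 no longer so in MT without that library (1.41, adjusted p = 0.127). cxadr rose by 2.41 ± 0.31 in MT (adjusted p = 0.00242), 1.58 ± 0.31 in TG (adjusted p = 0.0128) and 2.36 ± 0.33 in WT (adjusted p = 0.00131). Another plaque gene, pkp2, fell by 1.58 in MT (SE 0.20, adjusted p = 0.00231) and by 1.09 in WT (SE 0.20, adjusted p = 0.00474). Some called disc genes changed more with injury. pkp1b rose by 3.47 in MT (adjusted p = 0.00855) and 3.30 in TG (adjusted p = 0.00781). pkp3a rose by 6.97 in MT (adjusted p = 0.0222), and by 5.55 without MT7 replicate 1, from 0.0565 and 0 CPM in MT0. xirp2a fell by 1.89 in MT (adjusted p = 0.0101) and by 1.18 in WT (adjusted p = 0.0336). Of 4 pannexins, channel proteins that resemble connexins, 2 were tested, and 0 passed in any of the 11 comparisons with edgeR or DESeq2, with 0 at an unadjusted p under 0.05. panx1a lay between 5.36 and 8.35 CPM in all libraries.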

How the data were processed

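Total RNA of pooled apices was made into libraries with a TruSeq v2 kit, which does not mark strand, and sequenced single-end. The authors aligned reads to GRCz10 with STAR 2.5.2 and counted them per gene with featureCounts. The strand and multi-mapping settings are not given in the sources used here. The deposited values are raw read counts per gene, 1 table per library. Genes were filtered with filterByExpr (minimum count 10, minimum total 15), scaled by TMM and fitted with edgeR 4.0.16 (quasi-likelihood, limma 3.58.1, R 4.3.3) as 6 group means on all 12 libraries, with contrasts for 9 pairwise comparisons and 2 interactions. A call needed an adjusted p below 0.05 and a log2 fold change of more than 0.5 in either direction. The study itself used DESeq2, which was run here (1.42.0) as an alternative beside RLE scaling, no filter, the compared libraries only, a replicate block and each library left out. CPM are counts relative to the TMM-scaled library size. SE is the log2 fold change over the root of F.

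Members and gene lists were chosen with earlier results of these data known. Named genes were the called members, the 5 members of each class with the most CPM, and a list of heart connexins and barrier claudins, with the remaining members given as ranges or values. Of the partner lists, only some called genes were named. The labels only number the 2 libraries of a group, and the paper calls them biological replicates. How the 2 pools were kept apart is not stated, so p-values measure the spread between these pools. Intervals cover counting error only. Replicates differed by more than sampling noise.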

Additional observations from a re-analysis of the deposited data

Results flagged for a closer look

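The injury response of 2 claudins differed between genotypes by the interaction test. For cldn7a, the response in MT minus that in TG was -3.09 on the log2 scale (SE 0.51, adjusted p = 0.0234), where injury gave -0.57 in MT and 2.52 in TG. For cldn7b, the response in MT minus that in WT was 10.67 (SE 2.16, adjusted p = 0.0464). That size depends on the prior count, since both MT0 libraries were at 0, and it was 8.44 (adjusted p = 0.0971) without MT7 replicate 1. The groups here have 2 libraries each, too few for a search for single outlying values.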

How the results depend on the processing

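Of the 50 calls on members, 26 held in all 5 alternative settings, 13 with each library left out in turn and 9 in both. Over the alternatives 223 of 247 values stayed called, 24 were lost and 0 changed sign, with 3 removed by the low-count filter on the compared libraries alone, and with a library left out 440 of 600 stayed called, 160 were lost and 0 changed sign. Where leaving out a library leaves 1 in its group, that library is assumed to vary like the others. RLE scaling moved no count by over 1.5 times.

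On the compared libraries alone, the connexins called numbered 1 in MT0 against WT0, 0 in TG0 against WT0, 0 in MT7 against MT0 and 1 in the interaction of MT and TG, and the claudins 3 in MT0 against WT0, 3 in MT0 against TG0, 0 in TG0 against WT0, 4 in TG7 against WT7, 0 in MT7 against MT0 and 0 in the interaction of MT and WT. That fit called 1233 genes in MT0 against WT0, 3230 in MT0 against TG0, 915 in TG0 against WT0 and 333 in MT7 against MT0. It called 1134 in TG7 against WT7, where the main fit called 161 higher and 55 lower. In TG7 against TG0 it called 3171, where the main fit called 1272 higher and 510 lower. In the interactions it called 81 for MT and WT and 274 for MT and TG. With DESeq2 the connexins numbered 5 in MT0 against TG0, 2 in TG0 against WT0, 5 in MT7 against WT7, 2 in MT7 against TG7 and 1 in each interaction, and the claudins 2 in TG0 against WT0, 6 in MT7 against WT7, 1 in MT7 against TG7, 3 in TG7 against WT7, 4 in WT7 against WT0, 2 in the interaction of MT and WT and 3 in that of MT and TG. DESeq2 called 4304 genes in MT0 against TG0, 4680 in TG0 against WT0, 2544 in MT7 against WT7 and 1119 in MT7 against TG7. It called 661 in TG7 against WT7, 5019 in WT7 against WT0, and 1192 and 916 in the 2 interactions. The main fit called 874 genes higher and 1069 lower in MT7 against WT7, and 141 higher and 387 lower in MT7 against TG7. In the interactions it called 88 higher and 287 lower for MT and WT, and 66 and 202 for MT and TG. Without a low-count filter, 1 connexin was called in each interaction and 2 claudins in TG0 against WT0. Over all genes that fit called 531 and 388 in the interactions and 4075 in TG0 against WT0. The cause of these shifts was not tested. Calls over all genes were not counted with a library left out.

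Replicate numbers are shared between groups, but nothing in the labels ties same-numbered libraries together, and their deviations correlated at -0.118 to 0.119. With the number as a replicate block, 2 connexins were called in TG0 against WT0 and 0 in TG7 against WT7, and 0 claudins in the interaction of MT and WT. With the MT0 numbers crossed, chosen after the data were seen because that pair correlated at -0.112, MT7 against MT0 gave 3 connexins and 2 claudins.

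With each library left out, connexin calls ranged from 2 to 5 in MT0 against WT0, 1 to 4 in MT0 against TG0, 0 to 2 in TG0 against WT0, 0 to 3 in MT7 against WT7, 0 to 2 in MT7 against TG7, 0 to 1 in TG7 against WT7, 1 to 4 in MT7 against MT0, 0 to 5 in TG7 against TG0, 1 to 5 in WT7 against WT0 and 0 to 1 in each interaction. Claudin calls ranged from 3 to 5, 1 to 5, 0 to 2, 1 to 5, 0 to 1, 0 to 2, 1 to 4, 1 to 4 and 1 to 4 in the same order of comparisons, 0 to 1 in the interaction of MT and WT and 0 to 3 in that of MT and TG.

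With 2 pooled libraries a group, the biological coefficient of variation lay between 0.125 in WT7 and 0.369 in WT0. Members under 1 CPM rest on few counts, and near-identical copies or antisense transcripts cannot be told apart without the counting settings.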
